A study of Mus musculus with 8 samples.

Results

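The genes described here encode recruiters and cofactors of KDM1A, the DNA-binding repressors and adaptor proteins that bring this histone demethylase to its target genes. They were chosen by name: Snai1, Gfi1, Gfi1b, Zfp217, Zfp516, Ctbp1, Ctbp2, Zmym2, Zmym3 and Gse1. Rows for 7 of the 10 were found among 17589 genes, and all 7 had a mean of at least 1 FPKM and were tested. No row matched Gfi1, Gfi1b or Gse1 by symbol, gene identifier or RefSeq synonym, and these 3 were not analysed here.

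RNA came from sorted testis germ cells of C57BL/6 mice at 6 days after birth, in 4 Kdm1a knockout and 4 control libraries. Both groups carry the GOF/deltaPE-Oct4/GFP reporter, and both were sorted for Oct4-GFP by flow cytometry, so the cells are early spermatogonia that hold this reporter. The protocol calls the knockout conditional. For the Cre driver, the exons removed and whether each library is 1 animal, nothing was given in the sources used here, so the p-values speak of the spread among these 8 libraries, and that spread may be technical.

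KDM1A, also called LSD1, removes methyl groups from lysine 4 of histone H3 and does not bind DNA by sequence. Zinc-finger repressors of the SNAIL and GFI1 families carry a short N-terminal SNAG domain that mimics the histone H3 tail and docks into the KDM1A active site. Other zinc-finger proteins, such as ZFP217 and ZFP516, are found with KDM1A and the CTBP corepressors. MYM-type zinc-finger proteins join the complex of KDM1A, RCOR proteins and histone deacetylases.

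FPKM is a level per kilobase of transcript, scaled to the library. Kdm1a itself was at 14.2, 14.1, 17.3 and 14.9 FPKM in knockout replicates 1 to 4, against 53.7, 54.0, 92.0 and 48.1 FPKM in control replicates 1 to 4. Summed over its 8 entries, it was 4.10-fold lower (log2 change -1.92, adjusted p = 6.88e-05, limma). The log2 change was larger from its protein-coding entries alone (-2.69) and from its most abundant entry alone (-2.61). The germ cell markers Ddx4, Dazl, Pou5f1, Zbtb16, Uchl1 and Sall4 summed to 1351 to 1757 FPKM in the knockouts and to 1433 to 1554 FPKM in the controls, and 2 of the 6, Zbtb16 and Sall4, fell. Low FPKM come in steps of 1 fragment, which put the depth of the knockouts at 45500000 to 63000000 fragments and that of the controls at 61000000 to 67000000. The microRNA gene Mir5105 took 29.4% to 52.7% of all FPKM in the knockouts and 61.3% to 77.1% in the controls.

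Among the 7 members tested, Snai1 and Zmym3 fell and 0 rose, while Zfp217, Zfp516, Ctbp1, Ctbp2 and Zmym2 were not called at an adjusted p under 0.05 (limma on log2(FPKM + 1)). Over all 13483 genes tested, 12.1% fell and 25.3% rose, 37.5% in all. The 2 falls are 28.6% of the members tested, a share that rests on very few genes. The median log2 change of the members was -0.04, against 0.09 for all genes. The knockout values lay wholly below the control values in the same 2 members, as in 12.5% of all genes, and wholly above in 0, as in 26.1% of all genes (38.6% in either direction). Of the members not called, Zfp516 had the smallest unadjusted p, 0.0236 in limma, and it was higher in the knockouts. With every library scaled to an equal FPKM total, 0 members fell and 4, Zfp217, Zfp516, Ctbp1 and Ctbp2, rose. In that scaling 9549 of all 13483 genes rose and 151 fell, so a rise there does not set these members apart.

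**Figure D1:**
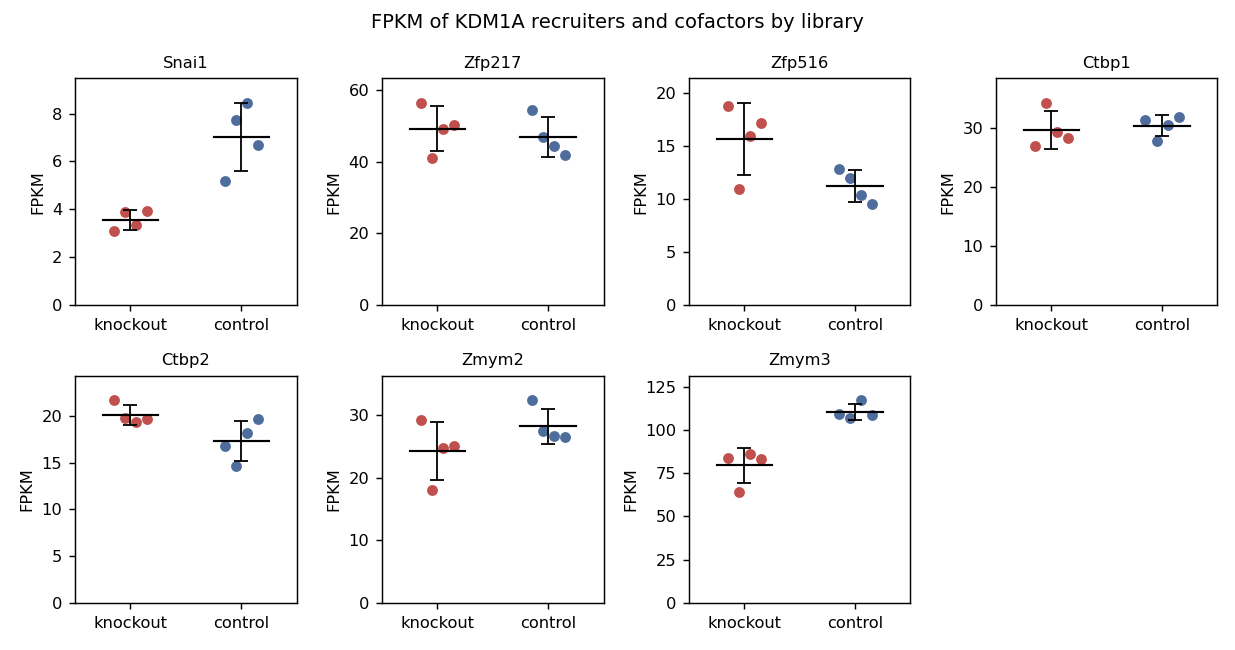
FPKM of the 7 members in each library, knockouts left of controls, where points are libraries, lines are group means and error bars are SD (4 libraries a group). Snai1 averaged 3.56 in the knockouts and 7.02 in the controls, and Zmym3 79.4 and 110.4, with no overlap between groups in these 2 genes.

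Levels spanned a wide range among the members, and the order of their means was the same in both groups. Zmym3 was highest, at the 94.6th percentile of all genes in the knockouts and the 96.8th in the controls. Zfp217 followed, then Ctbp1, Zmym2, Ctbp2 and Zfp516, with Snai1 lowest, at the 39.8th percentile in the knockouts and the 52.9th in the controls. Ctbp1 and Zmym2 overlapped between libraries in both groups, so their order was not resolved. Zmym2 and Ctbp2 overlapped in the knockouts but not in the controls. All other neighbours in this order were separate in both groups.

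Snai1 encodes the SNAIL zinc-finger repressor, a driver of epithelial to mesenchymal transitions that binds E-box motifs and recruits KDM1A through its SNAG domain. The gene (ENSMUSG00000042821) has a single transcript entry, Snai1-201, on the plus strand of chromosome 2 from 167538195 to 167542814 in mm10. Its FPKM was 3.09, 3.90, 3.34 and 3.91 in knockout replicates 1 to 4, against 5.19, 7.74, 8.45 and 6.69 in control replicates 1 to 4. All 4 knockout libraries lay below all 4 control libraries, and the controls were the more spread out. The means were 3.56 ± 0.410 FPKM in the knockouts and 7.02 ± 1.42 FPKM in the controls (SD, n = 4 each), which is 1.97-fold lower. The log2 change was -0.80 (SE 0.14, 95% interval -1.12 to -0.48, adjusted p = 0.00204, limma).

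Counting error was small beside this difference. At the inferred depths, Snai1 rested on about 287, 261, 290 and 279 fragments in knockout replicates 1 to 4, and on about 473, 723, 833 and 601 fragments in control replicates 1 to 4. The 95% Poisson intervals reached from 230 to 325 fragments over the knockouts and from 432 to 891 over the controls, and they cover counting error only. The call held in all 8 fits that left out a library (log2 change -0.92 to -0.72, adjusted p 0.00105 to 0.00871). With equal totals it was lost (log2 change -0.20, adjusted p = 0.450; range over alternatives 0.000666 to 0.450), where the median of all genes moved to 0.74 and Snai1 lay 0.94 below it.

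Snai1 is best known from mesenchymal cells, so markers of such cells are given beside it. The 5 peritubular and fibroblast markers summed to 20.6 to 23.8 FPKM in the knockouts and to 33.3 to 38.0 FPKM in the controls. Col1a1, a fibrillar collagen, made up most of that sum and fell, at 15.6 ± 0.285 FPKM in the knockouts and 28.7 ± 2.22 FPKM in the controls (adjusted p = 5.19e-05, limma), and it was the 1 member of the list that was called. Acta2, a smooth muscle actin, was at 1.88 ± 0.665 and 2.03 ± 0.949 FPKM, and Dcn, a fibroblast proteoglycan, at 0.877 ± 0.534 and 1.33 ± 1.96 FPKM, in knockouts and controls (n = 4 each). Pdgfra, a growth factor receptor, and Myh11, a smooth muscle myosin, had higher means in the knockouts, at 3.69 ± 0.702 and 0.594 ± 0.0780 FPKM, against 2.70 ± 0.819 and 0.508 ± 0.262 FPKM in the controls, with Pdgfra not called and Myh11 not tested. The part of these cells in the Snai1 result was not tested, and in bulk samples fewer cells of a type cannot be told apart from less RNA per cell.

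The promoters of Snai1 and Zmym3-209, which fell, and of both Zfp217 transcript entries, of which 1 fell, are shown. Each has 300 bases, from 250 before to 50 after the start. That of Zmym3-203, an entry that also fell and has another start, is not shown. Promoters of the other members are not shown, and those of Zfp516 were not analysed here. Sequences are from RefSeq on GRCm38.p6, 5′ to 3′ on the strand of the gene, with the SNAIL-type E-box CAGGTG, or CACCTG where it lies on the other strand, in capitals. That motif was found on either strand in 20.2% of all 32851 promoters of this length and in 3 of 11 promoters of the 6 members examined, so a match is a description and not a site.
Snai1-201 promoter, chr2:167537945-167538244, plus strand: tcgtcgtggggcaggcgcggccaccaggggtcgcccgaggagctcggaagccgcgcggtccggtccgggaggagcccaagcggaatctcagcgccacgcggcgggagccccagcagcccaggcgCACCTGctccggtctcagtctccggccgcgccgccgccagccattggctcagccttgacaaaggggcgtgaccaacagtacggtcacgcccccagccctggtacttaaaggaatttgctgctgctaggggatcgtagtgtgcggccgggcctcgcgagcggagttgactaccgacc
Zmym3-209 promoter, chrX:101419865-101420164, minus strand: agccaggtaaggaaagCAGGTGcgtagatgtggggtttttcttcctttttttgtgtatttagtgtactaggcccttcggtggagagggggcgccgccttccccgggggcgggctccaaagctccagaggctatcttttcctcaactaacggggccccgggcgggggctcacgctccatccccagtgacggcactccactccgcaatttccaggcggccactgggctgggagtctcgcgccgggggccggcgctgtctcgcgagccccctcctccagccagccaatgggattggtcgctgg
Zfp217-202 promoter, chr2:170142626-170142925, minus strand: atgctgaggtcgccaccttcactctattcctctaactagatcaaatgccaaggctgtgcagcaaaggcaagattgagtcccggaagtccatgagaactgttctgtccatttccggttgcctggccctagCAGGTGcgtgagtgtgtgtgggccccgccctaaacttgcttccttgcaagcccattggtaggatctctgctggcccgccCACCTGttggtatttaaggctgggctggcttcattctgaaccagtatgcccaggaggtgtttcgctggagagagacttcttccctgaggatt
Zfp217-201 promoter, chr2:170131171-170131470, minus strand: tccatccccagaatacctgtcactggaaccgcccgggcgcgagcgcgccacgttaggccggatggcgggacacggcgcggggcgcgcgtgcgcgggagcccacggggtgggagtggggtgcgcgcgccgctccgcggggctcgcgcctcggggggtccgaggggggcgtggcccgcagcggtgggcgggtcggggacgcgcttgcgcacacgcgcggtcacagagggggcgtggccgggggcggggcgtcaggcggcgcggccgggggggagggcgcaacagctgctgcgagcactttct
The Snai1 promoter held the motif once, 126 bases before its start. The Zmym3-209 promoter held it once, 234 bases before the start of that entry. The upstream Zfp217 promoter held it at 121 and 42 bases before its start, and the downstream one held none. The 2 Zfp217 promoters also differed in base composition, with 7 CpG dinucleotides upstream and 49 downstream, against a median of 7 over all promoters.

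Zfp217 encodes a zinc-finger protein found with KDM1A, RCOR1 and CTBP proteins in repressor complexes. Its locus spans bases 170108643 to 170148103 of chromosome 2, minus strand. The gene as a whole was at 56.4, 40.9, 49.2 and 50.3 FPKM in the knockouts and at 54.4, 46.9, 44.4 and 41.7 FPKM in the controls, so the groups overlapped. Its means were 49.2 ± 6.37 FPKM in the knockouts and 46.8 ± 5.47 FPKM in the controls (log2 change 0.07, 95% interval -0.19 to 0.33, adjusted p = 0.679, limma). With equal totals it was called as a rise (log2 change 0.78, adjusted p = 0.00475; range over alternatives 0.00475 to 0.998), 0.04 above the median of all genes in that scaling.

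Of the 2 Zfp217 transcript entries, which begin at different starts, 1 fell and 1 was not called. Both entries carry the same coding length of 3123 bases and differ at their first exons, whose starts lie 11458 bases from each other. Zfp217-201, from the downstream, CpG-rich start, was at 4.45, 4.28, 5.09 and 2.08 FPKM in the knockouts and at 6.60, 9.27, 8.03 and 5.97 FPKM in the controls. All 4 knockout values lay below the controls, and the entry fell (1.88-fold lower, log2 change -0.80, SE 0.23, adjusted p = 0.0431, limma over 26612 transcript entries). Zfp217-202, from the upstream start, averaged 45.2 ± 6.57 FPKM in the knockouts and 39.4 ± 5.68 FPKM in the controls and was not called (adjusted p = 0.350). The share of the gene held by Zfp217-202 was 92.1%, 89.5%, 89.6% and 95.9% in the knockouts and 87.9%, 80.2%, 81.9% and 85.7% in the controls. These shares did not overlap, but the exact two-sided permutation test over 70 assignments gave p = 0.0286, the smallest it can give, and p = 0.0571 adjusted over the 4 members with several entries.

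The fall of Zfp217-201 was a narrow call. It was lost in 7 of the 8 fits that left out a library, all except the one without knockout replicate 2 (adjusted p 0.0437 to 0.114 over the 8), and also with no filter, with a pseudocount of 0.1 and with equal totals (0.0505, 0.0516 and 0.555). The entries share nearly all of their sequence, so their split is an estimate that rests on the fragments over the first exons.

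Zfp516, on chromosome 18, encodes a zinc-finger protein that recruits KDM1A and CTBP proteins and is known as an activator of the brown fat programme. Its FPKM was 18.8, 10.9, 16.0 and 17.2 in the knockouts, against 12.9, 12.0, 10.4 and 9.54 in the controls. Knockout replicates 1, 3 and 4 lay above every control, and knockout replicate 2 lay among the controls. The means were 15.7 ± 3.39 FPKM in the knockouts and 11.2 ± 1.51 FPKM in the controls (log2 change 0.44, 95% interval 0.07 to 0.80, adjusted p = 0.0595, limma), so the gene was not called. Without knockout replicate 2 it was called (log2 change 0.59, adjusted p = 0.00274), and with each other library left out it was not (0.0639 to 0.138). With equal totals it was also called (log2 change 1.11, adjusted p = 9.55e-05; range over alternatives 9.55e-05 to 0.368), 0.38 above the median of all genes.

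The 2 Zfp516 entries also start at different first exons, 3753 bases apart, and share a coding length of 3471 bases. Zfp516-202, from the upstream start, was at 3.87, 2.89, 3.60 and 2.33 FPKM in the knockouts and at 1.71, 0.906, 0.717 and 2.02 FPKM in the controls. The groups did not overlap and the entry rose (2.37-fold, log2 change 0.86, SE 0.22, adjusted p = 0.0273, limma). The more abundant Zfp516-201 was at 12.5 ± 3.22 FPKM in the knockouts and 9.87 ± 1.71 FPKM in the controls and was not called (adjusted p = 0.344; 0.0450 without knockout replicate 2, where it was called). Its share of the gene averaged 79.2% ± 5.39 in the knockouts and 87.8% ± 6.64 in the controls, and these shares overlapped (exact permutation p = 0.114, adjusted p = 0.152). The call of Zfp516-202 was lost when control 2, control 3, knockout 1 or knockout 3 was left out (adjusted p 0.0555 to 0.0802), with the replicate number as a block (0.0714) and with small RNAs removed (0.0602). Of the 27 transcript entries of the members, 21 were tested, of which 2 rose, 4 fell and 15 were not called. Over all transcript entries tested, 12.0% rose and 5.93% fell, and the groups did not overlap in 26.0%, with the knockouts higher in 16.5% and lower in 9.53%.

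**Figure D2:**
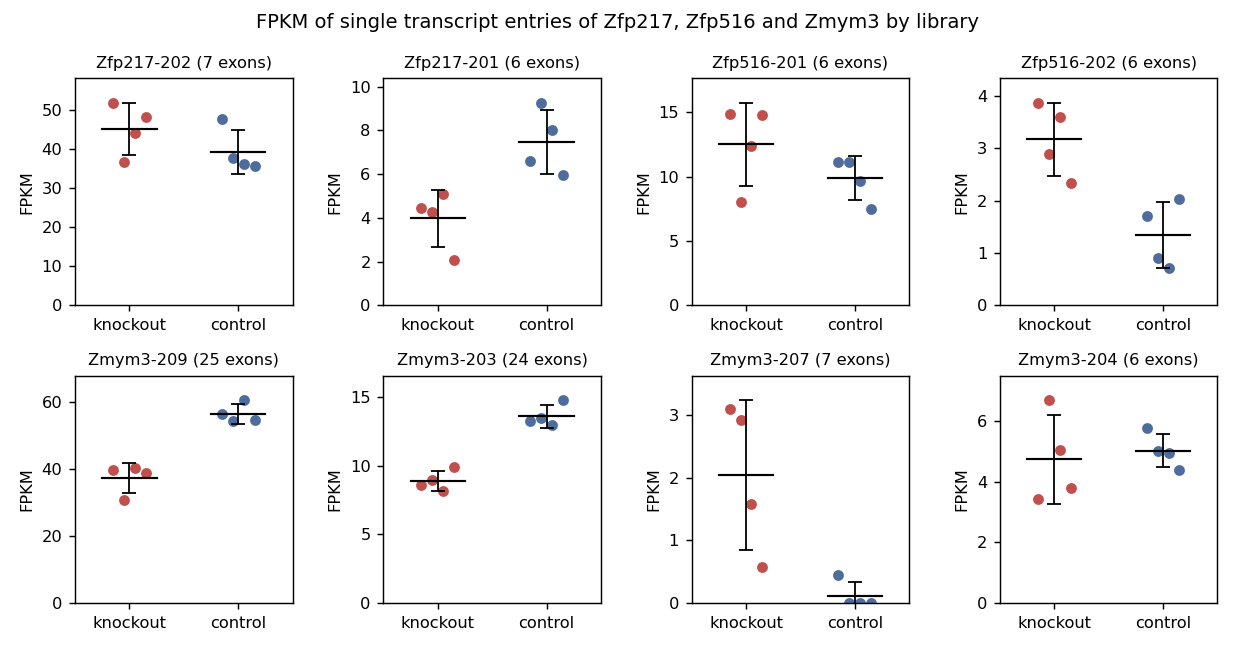
FPKM of 8 transcript entries in each library, knockouts left of controls, where points are libraries, lines are group means and error bars are SD (4 libraries a group). Zfp217-201 averaged 3.98 in the knockouts and 7.47 in the controls, Zfp516-202 3.17 and 1.34, and Zmym3-209 37.4 and 56.5.

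CTBP1 and CTBP2 are closely related corepressors that bind NADH and bridge DNA-binding repressors to chromatin enzymes, KDM1A among them. Neither was called. Ctbp1, a single entry on chromosome 5, was at 27.0, 34.3, 29.3 and 28.3 FPKM in the knockouts and 31.4, 27.8, 30.6 and 31.9 FPKM in the controls, so the control range lay within the knockout range. Its log2 change was -0.04 with a 95% interval of -0.24 to 0.17 (adjusted p = 0.787, limma), an interval that leaves out the -0.80 of Snai1. With equal totals the Ctbp1 sign turned (log2 change 0.67, adjusted p = 0.0154; range over alternatives 0.0154 to 0.955), but it then lay 0.07 below the median of all genes.

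Ctbp2, on chromosome 7, was at 21.6, 19.8, 19.3 and 19.7 FPKM in the knockouts and at 16.8, 14.6, 18.2 and 19.7 FPKM in the controls. Knockout replicates 3 and 4 lay below the highest control, control replicate 4, and the means were 20.1 ± 1.04 FPKM in the knockouts and 17.3 ± 2.17 FPKM in the controls (log2 change 0.21, 95% interval -0.01 to 0.43, adjusted p = 0.120, limma). With equal totals Ctbp2 was called as a rise (log2 change 0.90, adjusted p = 0.00135; range over alternatives 0.00135 to 0.660), 0.16 above the median of all genes. Of its 5 entries, Ctbp2-209 and Ctbp2-201 held nearly all of the level. These 2 differ in coding length, 1260 and 1335 bases. Ctbp2-209 took 58.2% ± 7.21 of the gene in the knockouts and 53.5% ± 5.68 in the controls (exact permutation p = 0.400). Fgfr2, a receptor gene whose annotation on the same strand overlaps Ctbp2, was at a mean of 2.36 FPKM in the knockouts and 3.40 FPKM in the controls, so fragments in the overlap could be counted for either gene.

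ZMYM2 and ZMYM3 are paralogous MYM-type zinc-finger proteins that join KDM1A complexes. Zmym2, on chromosome 14, was not called. It was at 29.3, 18.1, 24.7 and 25.04 FPKM in the knockouts and at 32.4, 27.4, 26.6 and 26.5 FPKM in the controls, with knockout replicate 2 lowest and control replicate 1 highest. Its log2 change was -0.22 (95% interval -0.53 to 0.09, adjusted p = 0.230, limma). Without knockout replicate 2 it was -0.0958 (adjusted p = 0.440), and with 1 library left out at a time it ranged from -0.32 to -0.0958. With equal totals the sign turned (log2 change 0.47, adjusted p = 0.0831).

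The Zmym3 locus spans bases 101404384 to 101420849 of the X chromosome, minus strand. It was at 84.0, 64.3, 86.0 and 83.4 FPKM in knockout replicates 1 to 4, against 109.2, 106.7, 117.0 and 108.7 FPKM in control replicates 1 to 4. Every knockout lay below every control, and knockout replicate 2 stood apart from the other 3. The means were 79.4 ± 10.2 FPKM in the knockouts and 110.4 ± 4.56 FPKM in the controls, 1.39-fold lower (log2 change -0.48, SE 0.10, adjusted p = 0.00567, limma). Without knockout replicate 2 the log2 change was -0.38 (adjusted p = 0.00104), and the call held with each library left out (0.00104 to 0.0210). With equal totals the sign turned (log2 change 0.24, adjusted p = 0.384; range over alternatives 0.000762 to 0.384), which was 0.50 below the median of all genes in that scaling.

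**Figure D3:**
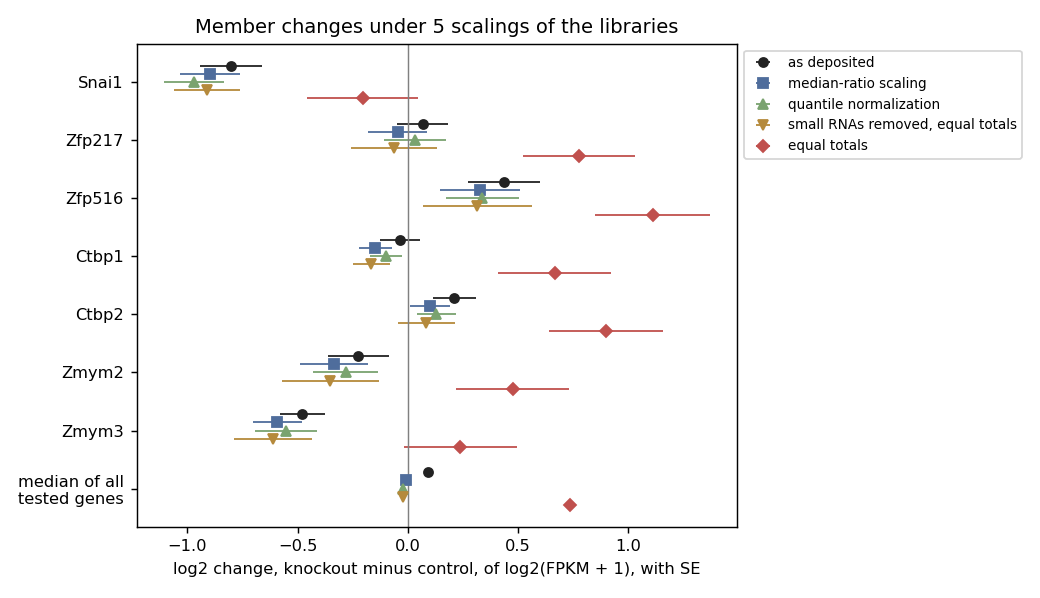
Log2 change of each member, knockout minus control, with SE, under 5 scalings of the libraries, above the median change of all tested genes. Snai1 runs from -0.97 to -0.20 and Zmym3 from -0.61 to 0.24, and equal totals, in which all genes shift to a median of 0.74, gives the highest value for each member.

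Among the transcripts of Zmym3, 2 long coding entries fell and 1 short coding entry rose. Zmym3 had 15 entries, of which 12 were tested, 2 fell, 1 rose and 9 were not called. Zmym3-209, with 25 exons and a coding length of 4104 bases, was at 39.7, 30.8, 40.4 and 38.8 FPKM in the knockouts and at 56.5, 54.4, 60.6 and 54.6 FPKM in the controls (1.51-fold lower, adjusted p = 0.00547, limma). Zmym3-203, with 24 exons, was at 8.91 ± 0.744 FPKM in the knockouts and 13.6 ± 0.808 FPKM in the controls (adjusted p = 0.00417). With equal totals both had the opposite sign (log2 changes 0.12 and 0.10). The 3 long coding entries together averaged 47.1 ± 4.56 FPKM in the knockouts and 71.6 ± 2.77 FPKM in the controls, and made up 59.5% ± 2.27 of the gene in the knockouts and 64.8% ± 0.258 in the controls. The 7 entries that are not protein-coding were also lower, at 23.0 ± 6.78 FPKM in the knockouts and 31.0 ± 1.80 FPKM in the controls. Most of that difference was in Zmym3-218, at 10.5 ± 4.10 FPKM in the knockouts and 18.01 ± 0.578 FPKM in the controls, which was not called (adjusted p = 0.0814). The share of Zmym3-209 alone was 47.3%, 47.9%, 47.0% and 46.5% in the knockouts and 51.7%, 51.0%, 51.7% and 50.2% in the controls (exact permutation p = 0.0286, adjusted p = 0.0571). Shares of the most abundant entry did not overlap between groups in 8.89% of 7929 genes with several entries, and in 2 of the 4 members with several.

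The short coding forms were not lower as a group. Zmym3-207, with 7 exons and a coding length of 1491 bases, was at 3.10, 2.91, 1.58 and 0.568 FPKM in the knockouts. In the controls it was at 0.450 FPKM in replicate 1, listed at 0 in replicate 3 and under 0.01 in replicates 2 and 4. It rose (log2 change 1.37, adjusted p = 0.0169, limma), but it passed the filter through the knockouts alone, and the call was lost without control replicate 2 or 3 (adjusted p = 0.0512 and 0.0521). The 5 short coding entries, which share most exons and whose single values are therefore uncertain, summed to 9.98, 11.1, 9.65 and 6.69 FPKM in the knockouts and 8.29, 7.99, 8.12 and 6.80 FPKM in the controls. Those sums overlapped through knockout replicate 4. No test was run on the sums.

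The genes whose pattern over the 8 libraries was most like that of the 2 members that fell were found among 8454 genes of at least 5 FPKM. For Snai1 they were Lemd2, Rhot2 and Sppl2b (Pearson r = 0.980, 0.980 and 0.976 of log2(FPKM + 1)). For Zmym3 they were Stk35, Mtr and Tmem184b (r = 0.987 for each). Kdm1a had r = 0.932 with Snai1 and 0.905 with Zmym3. The points of each pair share their libraries, with the same groups, depth and scaling, so these values are a description.

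The KDM1A core complex, which the recruiters bring to DNA, had 8 genes tested of 9 listed. Among them 3 fell, 1 rose and 4 were not called, with a median log2 change of -0.03. Over all genes tested, 12.1% fell and 25.3% rose with a median of 0.09, and the falls are 37.5% and the rise 12.5% of these 8 genes. Rcor2, a CoREST scaffold subunit, was at 19.7 ± 3.60 FPKM in the knockouts and 37.0 ± 5.68 FPKM in the controls. Phf21b, a paralog of the histone reader subunit PHF21A, was at 1.24 ± 0.259 FPKM in the knockouts and 3.04 ± 0.800 FPKM in the controls. With equal totals neither was called (log2 change -0.19, adjusted p = 0.496 for Rcor2, and -0.36, 0.124 for Phf21b, limma). Hmg20b, an HMG-box subunit, fell 1.88-fold, but it was not called with equal totals (log2 change -0.20, adjusted p = 0.470) or from its most abundant entry alone (log2 change -0.06, adjusted p = 0.860; range over alternatives 0.000165 to 0.860).

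Among 35 other recruiters and cofactors, 21 were tested, of which 6 fell, 4 rose and 11 were not called (median log2 change -0.07), so 28.6% fell and 19.0% rose, against 12.1% and 25.3% of all genes. Rest, the repressor of neuronal genes that recruits KDM1A and RCOR1, was at 21.5 ± 3.28 FPKM in the knockouts and 41.8 ± 3.11 FPKM in the controls (adjusted p = 0.000279, limma). With equal totals it was not called (0.389). Prdm1, a zinc-finger repressor needed for germ cell specification, rose 4.93-fold, at 2.50 ± 0.412 FPKM in the knockouts and 0.508 ± 0.0660 FPKM in the controls. It passed the filter of 1 FPKM through the knockouts alone. Bcl11a, a repressor known from blood, rose 4.09-fold, at 6.09 ± 1.69 FPKM in the knockouts and 1.49 ± 0.182 FPKM in the controls. The orphan nuclear receptor Nr2c1 rose 1.72-fold, at 2.97 ± 0.235 FPKM in the knockouts and 1.72 ± 0.124 FPKM in the controls. Of the 4 endothelial markers found of 5 listed, Pecam1 and Tek rose, at 4.55 ± 0.635 and 4.13 ± 0.962 FPKM in the knockouts, against 1.39 ± 0.273 and 1.05 ± 0.110 FPKM in the controls. Cdh5 was at 2.08 and Kdr at 0.833 FPKM in the knockouts, against 1.86 and 0.811 FPKM in the controls, with Cdh5 not called and Kdr not tested. The 4 summed to 11.2 to 12.1 FPKM in the knockouts and to 3.98 to 5.62 FPKM in the controls. The 6 erythroid and megakaryocyte markers found summed to 3.79 to 5.97 FPKM in the knockouts and to 2.04 to 2.51 FPKM in the controls. Only 1 of the 6, Itga2b, was tested, and it passed the filter through the knockouts alone. It rose, at 1.44 ± 0.338 FPKM in the knockouts and 0.764 ± 0.331 FPKM in the controls, though the groups overlapped. Alas2 was at 1.65 ± 0.529 FPKM in the knockouts and 0.289 ± 0.0109 FPKM in the controls, and Gata1 at 0.529 and 0.217 FPKM, both without overlap. Klf1 overlapped, and Epor was lower in the knockouts, at 0.270 FPKM against 0.417. The globin gene Hbb-b1 was under 0.5 FPKM in every library. The part of endothelial and blood cells in these rises was not tested. Among the ZMYM paralogs, Zmym5 fell, at 40.8 ± 4.11 FPKM in the knockouts and 48.9 ± 2.13 FPKM in the controls (adjusted p = 0.0416), while Zmym1, Zmym4 and Zmym6 were not called. The SNAIL relative Snai2 averaged 0.456 FPKM in the knockouts and 0.195 FPKM in the controls, under the level tested.

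**Figure D4:**
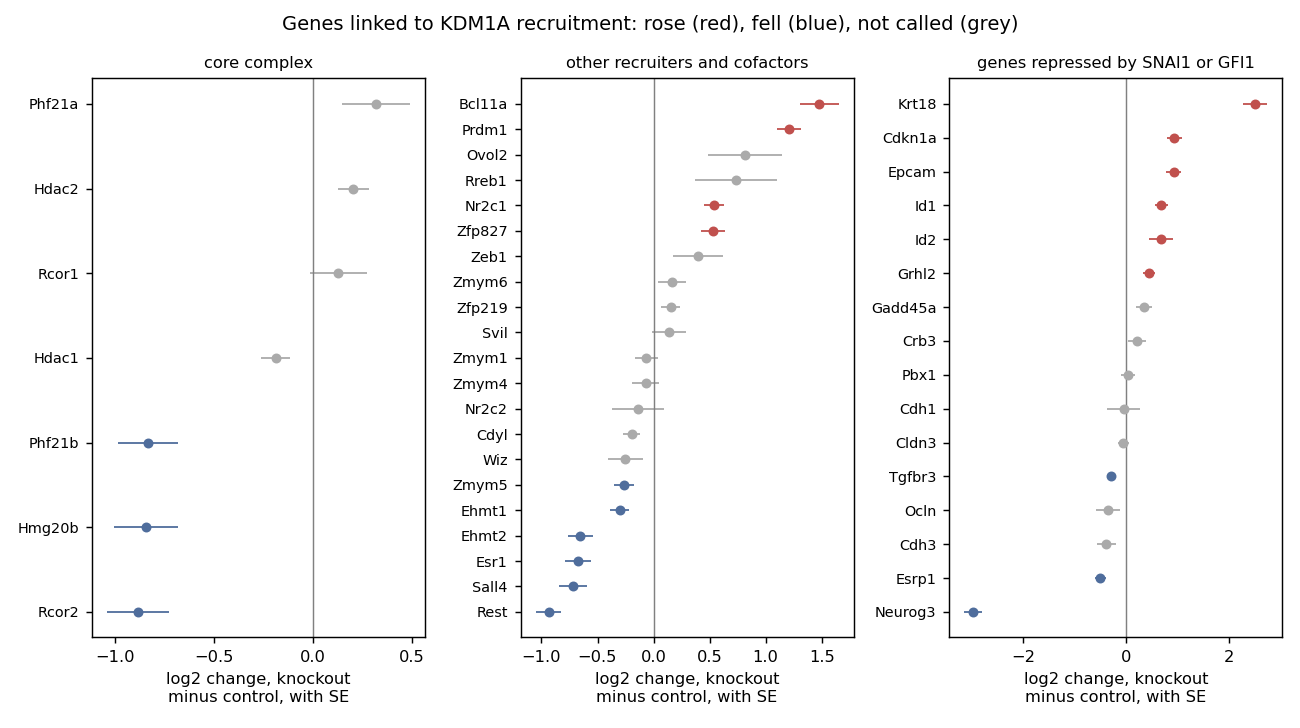
Log2 change with SE, knockout minus control, of genes from 3 lists that were tested and are reported here, in red where they rose, blue where they fell and grey where they were not called. Rcor2, Rest and Neurog3 have the lowest values of their lists, at -0.89, -0.94 and -2.97.

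Genes that SNAI1 or GFI1 proteins are known to repress in other tissues numbered 28, of which 16 were tested, with 6 rises, 3 falls and 7 not called. That is 37.5% risen and 18.8% fallen, against 25.3% and 12.1% of all genes, and the median log2 change was 0.13, against 0.09. Cdh1, encoding E-cadherin and the textbook target of SNAI1, was at 11.2 ± 3.61 FPKM in the knockouts and 12.2 ± 5.96 FPKM in the controls (log2 change -0.05, adjusted p = 0.924, limma). It was named after its value was seen. The other epithelial genes tested went in both directions. Krt18, a keratin, Epcam, an adhesion protein, and Grhl2 rose, Esrp1 fell, and Cdh3, Ocln, Cldn3 and Crb3 were not called. Esrp1 was at 44.3 ± 1.96 FPKM in the knockouts and 63.5 ± 9.57 FPKM in the controls (adjusted p = 0.00689, limma). Grhl2 was at 10.1 ± 0.934 and 7.16 ± 0.984 FPKM, in knockouts and controls. Krt18 was at 9.35 ± 4.34 FPKM in the knockouts and 0.731 ± 0.149 FPKM in the controls, and it passed the filter through the knockouts alone. Epcam was at 95.5 ± 16.9 FPKM in the knockouts and 50.1 ± 9.09 FPKM in the controls. The 8 markers of Sertoli cells, the epithelial cells of the seminiferous tubule, summed to 25.9 to 69.3 FPKM in the knockouts and to 17.9 to 57.2 FPKM in the controls, and 0 of the 6 tested were called. Their part in these rises was not tested. Cdkn1a, a cell cycle inhibitor, rose 2.19-fold. Neurog3, a transcription factor of spermatogonial progenitors, fell and was at 0.351 ± 0.114 FPKM in the knockouts and 9.78 ± 2.79 FPKM in the controls, and it passed the filter through the controls alone. These lists were drawn up with earlier results of the same data known, so their directions carry no independent weight. With equal totals the core complex had 4 rises and 0 falls of 8 tested, the other recruiters 12 and 0 of 21. The repressed genes had 10 and 1 of 16. Over all 13483 genes tested, 9549 rose and 151 fell in that scaling, so most genes at large rose there too.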

How the data were processed

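RNA from 4 knockout and 4 control libraries was made into stranded mRNA libraries with a TruSeq kit, per the labels' protocols. The authors deposited FPKM for 45550 transcript entries, and the submitters' processing notes name TopHat, Bowtie, Cufflinks and Cuffdiff with build mm10. For versions, annotation and filters, nothing was given in the sources used here. Cufflinks divides fragments between entries that share sequence, so single entries are estimates.

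FPKM were summed over transcripts by gene identifier and log2(FPKM + 1) was tested with limma 3.58.1 in R 4.3.3 (intensity trend, group only) where the mean was at least 1 FPKM, 13483 genes in all, with a Benjamini-Hochberg adjusted p under 0.05 as the call. Single entries were fitted likewise. Changes on this scale understate those of low genes, and folds are ratios of mean FPKM. Transcript types, exons and positions came from GENCODE M21 on GRCm38, which holds 44291 of the entries. Shares of an entry were compared by exact permutation.

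Depth was taken as the fragment number at which low FPKM of single-entry genes, with 150 bases taken off the length, were most often within 0.1 of a whole fragment (61.0% to 66.8% of values, against 20% by chance).

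The members and lists were chosen with earlier results of these data known. Named genes were the members, Kdm1a, up to 4 called genes of each list by adjusted p, and for each member that fell the 3 genes most like it. Marker genes, Zmym1, Zmym4, Zmym5, Zmym6, Snai2, Cdh1, Cdh3, Ocln, Cldn3, Crb3, Esrp1, Grhl2, Fgfr2 and Mir5105 are named with their values already known. The fits were tested on simulated data. A gene that the rule selects from the core complex list is not reported here, though it stays in the list's counts.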

Additional observations from a re-analysis of the deposited data

Results flagged for a closer look

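The 58 groups of 4 libraries examined are not independent, since they share libraries and count a gene and its own entries separately. Of these groups, 8 held a library far from the other 3 by Dixon's criterion, of which chance gives about 1 in 20 groups. Knockout replicate 2 was that library in 4 of them. Zmym3 was at 64.3 FPKM there, against 83.4 to 86.0 in the other knockouts, and its entry Zmym3-209 at 30.8 FPKM, against 38.8 to 40.4. Rcor2 was at 14.3 FPKM in the same library, against 20.96 to 22.2 in the other knockouts. Ctbp2-209 was higher there, at 13.5 FPKM, against 10.9 to 11.3.

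Control replicate 1 was the far library in 3 groups. Zmym2 was at 32.4 FPKM in it, against 26.5 to 27.4 in the other controls. Zfp217-202 was at 47.8 FPKM, against 35.7 to 37.6, and Zmym3-207 at 0.450 FPKM, with the other controls listed at 0 or under 0.01. Kdm1a was at 92.0 FPKM in control replicate 3, against 48.1 to 54.0 in the other controls.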

How the results depend on the processing

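The 2 falls among the members, Snai1 and Zmym3, were called under every alternative run except equal totals. There 0 members fell and 4 rose, against 2 and 0 as deposited, and over all genes 9549 rose and 151 fell, against 3417 and 1635. Small RNAs removed gave 2241 rises of all genes, and quantile normalization 2648 falls. Equal totals also gave 7 rises and 0 falls of member transcript entries, against 2 and 4, and in the lists 4 and 0 (core complex), 12 and 0 (other recruiters) and 10 and 1 (repressed genes). The median change of all genes was 0.74 there, -0.01 with median-ratio factors and -0.02 with quantiles matched or small RNAs removed. Signs turned with equal totals for Ctbp1 (0.67), Zmym2 (0.47), Zmym3 (0.24), Zmym3-209 (0.12) and Zmym3-203 (0.10), and for Zfp217 with median-ratio factors (-0.0471) or small RNAs removed (-0.0644). Core complex rises were 0 with median-ratio factors, with quantiles matched and with small RNAs removed, and 2 with the most abundant entry of each gene, and other recruiters had 8 rises with no filter. Member entries that rose numbered 1 with small RNAs removed.

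Leaving out 1 library at a time gave 0 to 1 rises and 2 to 2 falls of members, 0 to 2 rises and 3 to 5 falls of their entries, and 0 to 2 rises and 3 to 4 falls in the core complex. For all genes it gave 2621 to 3816 rises and 1165 to 2034 falls. Zfp217 ranged from -0.000467 to 0.151 and Ctbp1 from -0.104 to 0.00821, with the sign turned without knockout replicate 1 in both. Splits of rises and falls over all genes were 2633 and 2448 with median-ratio factors, 2655 and 2648 with quantiles matched, and 2241 and 1800 with small RNAs removed. Deviations of same-numbered libraries from their group means had r of 0.224, -0.119, -0.133 and -0.0928. Differently numbered libraries were not compared in this way, so whether the numbers pair the libraries was not decided. With the number as a replicate block, 2983 genes rose and 1408 fell, and it changed 1 call of a member entry (1 rise, against 2) and gave log2 changes of -0.80 for Snai1 (adjusted p = 0.00593, limma) and -0.48 for Zmym3 (0.0148). The sums of protein-coding entries, an alternative chosen after seeing the data, gave the same 2 falls. The causes of these shifts were not tested. Equal totals divides each library by its sum of FPKM, in which Mir5105 is counted. That gene took 29.4% to 52.7% of the sum in the knockouts and 61.3% to 77.1% in the controls. At the inferred depths, Snai1, the lowest member, rested on about 261 to 290 fragments in the knockouts and 473 to 833 in the controls. Depth was inferred and not measured, and whether it limited Snai1 or the split entries was not tested.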
